A study of Mus musculus with 28 samples.

Results

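The genes described here are 42 erythroid and heme synthesis genes, chosen by symbol and not by their values. They comprise 7 regulators of transcription, 7 enzymes of heme synthesis, 4 mitochondrial carriers, 3 receptors, 15 proteins of the red cell membrane and its skeleton, and 6 mostly cytosolic proteins. Of them, 40 had a probe set that names that gene alone, among 18193 genes so measured, and the probe set with the highest mean stood for the gene. Ahsp and Trim58 were not analysed here.

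The genes were followed in mouse spleen RNA on 28 single-colour arrays from 2 experiments. Every mouse carried floxed Pparg alleles: wild-type mice were PPAR g flfl; MMTV-Cre-, and null mice were PPAR g flfl; MMTV-Cre+. Mice ate a control diet or one supplemented with abscisic acid (ABA), a plant hormone, with or without a challenge of lipopolysaccharide (LPS), a component of the outer membrane of bacteria. The wild-type-only experiment, the first below, had 4 arrays with LPS and 2 without on each diet. The experiment with both genotypes, the second below, had 2 arrays in each of its 8 groups of genotype, diet and LPS. Cre recombinase was driven by the MMTV promoter, and the study's text describes the deletion as one of epithelial and immune cells. Erythroid cells are not named there, and whether they kept or lost Pparg was not tested. The protocol counts 40 mice per genotype and speaks both of splenocytes and of homogenised tissue. Age, sex, LPS dose and time after LPS were not given in the sources used here.

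In mice the red pulp of the spleen makes red cells throughout life and expands this output in anemia, infection and inflammation. Erythroid precursors respond to erythropoietin through Epor, take up iron through the transferrin receptor Tfrc, and switch on globin, heme and membrane genes under the transcription factors Gata1, Tal1 and Klf1. Heme synthesis begins in the mitochondrion with Alas2, the erythroid aminolevulinate synthase, continues in the cytosol, and ends in the mitochondrion with Fech, which inserts iron into protoporphyrin.

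Promoter sequences of 6 genes that passed the test for LPS in wild-type mice are shown because they hold letters that GATA factors or Klf1 are known to recognise. They are the 250 bases before the RefSeq start in GRCm38.p6, written 5′ to 3′ along the gene. Capitals mark the letters AGATAA or TGATAA or else CACACCC, on either strand, so that a match on the opposite strand shows the reverse complement of these letters. Klf1 lies at chr8:84901732-84901981 on the plus strand, Hemgn at chr4:46404184-46404433 on the minus strand, and Alas2 at chrX:150547167-150547416 on the plus strand. Cpox lies at chr16:58669958-58670207 on the plus strand, Kel at chr6:41704326-41704575 on the minus strand, and Epor at chr9:21963577-21963826 on the minus strand.
Klf1: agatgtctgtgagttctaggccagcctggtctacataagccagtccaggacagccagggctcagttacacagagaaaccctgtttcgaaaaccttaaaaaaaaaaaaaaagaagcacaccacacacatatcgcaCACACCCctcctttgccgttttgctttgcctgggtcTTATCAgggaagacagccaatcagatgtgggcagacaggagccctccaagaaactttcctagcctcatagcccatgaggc
Hemgn: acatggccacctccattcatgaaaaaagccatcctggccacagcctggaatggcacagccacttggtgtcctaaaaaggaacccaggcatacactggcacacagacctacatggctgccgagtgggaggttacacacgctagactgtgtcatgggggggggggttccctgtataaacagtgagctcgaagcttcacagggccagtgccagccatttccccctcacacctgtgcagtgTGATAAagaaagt
Alas2: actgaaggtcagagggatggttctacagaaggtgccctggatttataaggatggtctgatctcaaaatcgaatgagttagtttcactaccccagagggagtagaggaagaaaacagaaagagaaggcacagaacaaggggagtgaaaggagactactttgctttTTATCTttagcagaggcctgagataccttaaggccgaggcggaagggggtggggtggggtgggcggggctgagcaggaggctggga
Cpox: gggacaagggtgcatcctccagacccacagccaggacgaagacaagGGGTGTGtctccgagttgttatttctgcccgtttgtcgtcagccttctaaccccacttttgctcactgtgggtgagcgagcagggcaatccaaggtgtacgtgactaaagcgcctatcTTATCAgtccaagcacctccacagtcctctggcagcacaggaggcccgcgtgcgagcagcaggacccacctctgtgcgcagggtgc
Kel: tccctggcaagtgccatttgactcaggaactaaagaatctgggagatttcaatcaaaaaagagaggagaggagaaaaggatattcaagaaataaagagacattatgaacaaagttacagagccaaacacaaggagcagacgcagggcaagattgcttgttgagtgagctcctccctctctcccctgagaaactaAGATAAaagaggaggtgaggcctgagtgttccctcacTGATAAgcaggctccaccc
Epor: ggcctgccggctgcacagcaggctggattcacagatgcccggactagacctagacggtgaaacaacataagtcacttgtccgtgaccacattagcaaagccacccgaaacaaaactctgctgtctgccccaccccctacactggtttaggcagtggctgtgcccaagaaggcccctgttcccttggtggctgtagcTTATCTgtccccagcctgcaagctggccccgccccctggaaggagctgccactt
The RefSeq table held windows for 33 of the genes, 39 windows in all, since a gene can have several starts. AGATAA or TGATAA, which share the letters GATAA, stood in 16 of the 39 windows (41%) against 16.6% of all 32851 windows of this length. AGATAA stood in 20.5% of the genes' windows and 9.99% of all, and TGATAA in 23.1% and 7.94%. CACACCC, the CACCC box letters of Klf1, stood in 5 windows (12.8% against 6.93% of all), together with TGATAA in those of Klf1 and Cpox, with AGATAA in that of Trim10, and with neither in those of Gata1 and Tfr2. The E-box CAGCTG stood in 3 windows (7.69% against 13% of all). These counts describe letters in these windows only.

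The deposited values are log2 expression values, and 35.9% to 41.9% of the values on an array lay at 1 shared lowest value, which was 2.29 for the first experiment and 2.24 for the second. Within an experiment the correlation of any pair of arrays was at least 0.942, between experiments it was 0.769 to 0.837, and no level is compared between experiments. Mean levels of the 6 B cell markers ran from 8.20 to 10.30 and of the 5 T cell markers from 6.68 to 9.13 over all 28 arrays, so both lymphocyte types of spleen were present throughout. Pparg itself was low and did not separate the genotypes: without LPS its levels were 2.45, 2.51, 2.69 and 3.56 in wild-type and 2.45, 2.50, 3.30 and 3.31 in null mice. The sources used here do not say whether its probe set lies in the deleted part, which leaves the labels unchecked by this gene. Cpa1, a pancreatic enzyme, was high on 4 arrays (6.19, 9.11, 9.67 and 13.50), and Xist, the transcript of the inactive X chromosome, was high on all 12 arrays of the first experiment and 6 of 16 of the other. In wild-type mice of the second experiment, Xist was high on both control-diet arrays with LPS (12.46 and 12.17). It stood at 2.24 to 2.25 on both control-diet arrays without LPS and on both ABA arrays with LPS. Since the labels do not state that each replicate was another animal, the p-values describe the spread among these arrays, which may be technical.

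With LPS, wild-type spleens held less of nearly every erythroid and heme transcript. Of the 40 genes tested, 38 fell and 0 rose, against 14.1% of 13458 genes that fell, 16.7% that rose and 30.9% in either direction. The median change was -2.68 on the log2 scale, where the median of all tested genes was -0.00072, and the genes' own changes ran from -5.18 to -0.39. Hemgn, Rhd and Slc4a1 had the largest falls, each of about 36-fold. The comparison took LPS minus no LPS, averaged over diets, in the 20 wild-type arrays with experiment as a term, tested with limma and Benjamini-Hochberg adjustment over all genes. The ± after a change is its standard error from that fit, and a gene passed at an adjusted p under 0.05. Slc25a38 and Xk did not pass. In whole spleen RNA, fewer cells of a type and less RNA per cell cannot be told apart.

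Both experiments gave the same sign. Mean levels of the 40 genes were 5.51 to 9.58 without LPS and 4.81 to 6.34 with it in the first experiment, and 9.002 to 11.67 and 6.05 to 7.04 in the wild-type mice of the other. In the first experiment alone, all 40 changes were negative with a median of -2.12, and 15 genes passed, against 27.1% of 12059 genes tested there. In the wild-type mice of the other experiment alone, all 39 tested changes were negative with a median of -3.78, and 16 genes passed, against 7.28% of 12751. Arrays with LPS lay below all arrays without it for 39 of 40 genes in the latter (7.91% of all genes) but for 5 of 40 in the former (6.07%): Fech, Slc25a37, Tmod1, Rhd and Bpgm. Among the 50, 100 and 200 genes with the largest falls over both experiments, 14, 21 and 31 were erythroid and heme genes. Of the 19 genes with several probe sets, 31 of 31 other tested probe sets had the same sign as the one used.

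**Figure D1:**
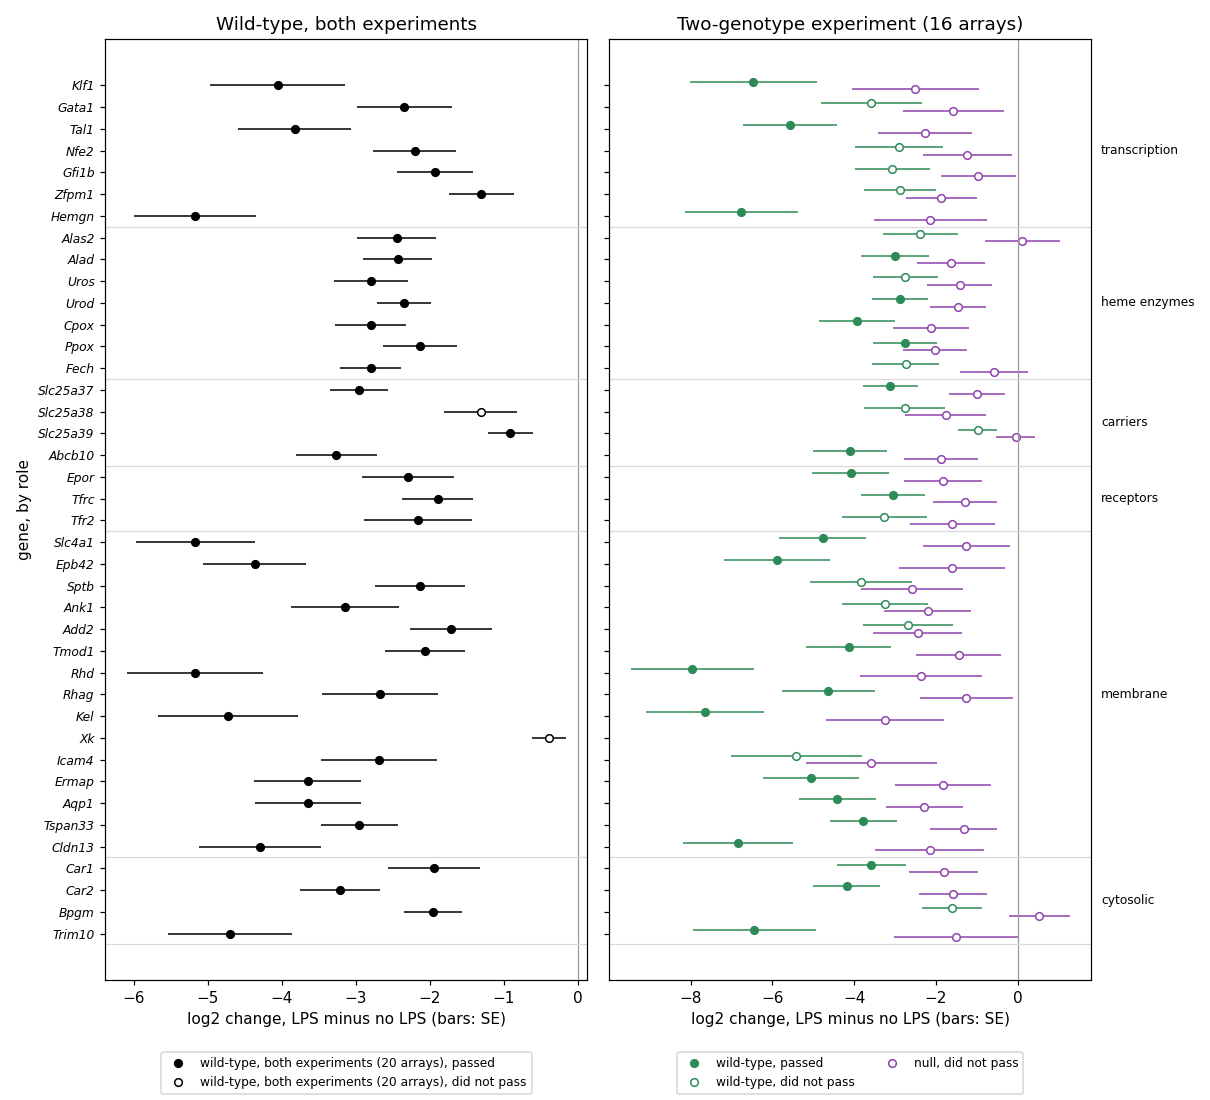
Log2 change with LPS for each gene, in rows by role: the left panel shows wild-type mice over both experiments (20 arrays) and the right panel wild-type and null mice of the experiment with both genotypes (16 arrays); points are limma estimates, bars their standard errors, and filled points passed. All 40 points on the left lie below 0, and on the right every null point lies to the right of the wild-type point of the same gene.

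All 7 regulators of transcription fell, with a median change of -2.34. Klf1, the erythroid Krüppel-like factor that activates globin and membrane genes, stood without LPS in the first experiment at 6.03 and 2.71 on the control diet and 8.66 and 2.39 on ABA, and its 8 LPS arrays ran from 2.29 to 5.20 (median 2.38). Klf1 in wild-type mice of the second experiment stood at 10.95 and 11.83 on the control diet and 12.05 and 8.78 on ABA without LPS, and at 4.99 and 3.55 on the control diet and 4.61 and 4.61 on ABA with LPS. Klf1 fell by 4.05 ± 0.91 (16.6-fold; adjusted p = 0.00313). Each of the 4 wild-type LPS arrays of the second experiment lay below the 4 without LPS, while in the first it was near the lowest value on 7 of 8 LPS arrays and also on 2 of 4 arrays without LPS.

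Gata1, the zinc finger factor required for red cell maturation, stood without LPS in the first experiment at 8.22 and 6.53 on the control diet and 10.90 and 6.32 on ABA, and its 8 LPS arrays ran from 6.04 to 7.72 (median 6.44). Gata1 in wild-type mice of the second experiment stood at 8.82 and 9.95 on the control diet and 10.38 and 6.40 on ABA without LPS, and at 5.67 and 5.32 on the control diet and 5.64 and 4.61 on ABA with LPS. Gata1 fell by 2.34 ± 0.64 (5.07-fold; adjusted p = 0.0112). Its groups overlapped in the first experiment and did not in wild-type mice of the other, where 1 ABA array without LPS lay within 1 log2 unit of the highest LPS array. Zfpm1, which encodes the Gata1 cofactor Fog1, stood without LPS in the first experiment at 2.29 and 2.29 on the control diet and 2.77 and 2.29 on ABA, and its 8 LPS arrays stood at 2.29. Zfpm1 in wild-type mice of the second experiment stood at 10.96 and 10.28 on the control diet and 11.08 and 8.43 on ABA without LPS, and at 8.05 and 7.71 on the control diet and 6.64 and 6.84 on ABA with LPS. The first experiment held it near the lowest value on all 12 arrays, and in wild-type mice of the second every LPS array was lower than every other. Zfpm1 passed over both experiments (adjusted p = 0.0338 by limma) but in neither alone, with a change of -0.12 in the first and -2.88 in the second, so the pooled change, -1.30 ± 0.44, does not measure the size of its fall.

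Hemgn, a nuclear protein of erythroid precursors, stood without LPS in the first experiment at 13.12 and 12.18 on the control diet and 13.79 and 9.78 on ABA, and its 8 LPS arrays ran from 6.06 to 11.06 (median 8.62). Hemgn in wild-type mice of the second experiment stood at 13.39 and 13.61 on the control diet and 14.70 and 12.18 on ABA without LPS, and at 8.90 and 4.40 on the control diet and 5.39 and 8.15 on ABA with LPS. Hemgn had the largest change of all the genes and fell by 5.18 ± 0.82 (36.2-fold; adjusted p = 0.000194). In the first experiment 1 control-diet LPS array reached the range of the arrays without LPS, and in wild-type mice of the second the groups did not overlap. Among the other regulators, Tal1, a helix-loop-helix partner of Gata1, fell by 3.83 ± 0.76 (adjusted p = 0.00129), and Nfe2, a leucine zipper factor of globin control regions, fell by 2.20 ± 0.56 (adjusted p = 0.00723). Gfi1b, a repressor needed in erythroid and megakaryocyte precursors, fell by 1.93 ± 0.51 (adjusted p = 0.00919).

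All 7 heme enzymes fell, in a narrow range of changes from -2.80 to -2.13 with a median of -2.45. Alas2, whose step sets the pace of erythroid heme synthesis, stood without LPS in the first experiment at 10.20 and 8.28 on the control diet and 11.93 and 8.22 on ABA, and its 8 LPS arrays ran from 5.45 to 8.48 (median 7.21). Alas2 in wild-type mice of the second experiment stood at 14.69 and 12.81 on the control diet and 14.04 and 12.09 on ABA without LPS, and at 11.73 and 10.19 on the control diet and 11.55 and 10.63 on ABA with LPS. Alas2 fell by 2.45 ± 0.53 (5.46-fold; adjusted p = 0.00243). Levels with LPS overlapped those without in the first experiment by the 1 ABA array at 8.48, and not in wild-type mice of the other.

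Fech, ferrochelatase, stood without LPS in the first experiment at 10.83 and 9.94 on the control diet and 12.76 and 9.23 on ABA, and its 8 LPS arrays ran from 7.16 to 8.66 (median 7.76). Fech in wild-type mice of the second experiment stood at 13.79 and 12.97 on the control diet and 14.03 and 12.16 on ABA without LPS, and at 11.02 and 9.62 on the control diet and 11.13 and 10.20 on ABA with LPS. Fech had the largest change of the enzymes and fell by 2.80 ± 0.41 (6.96-fold; adjusted p = 9.86e-05). Every wild-type LPS array lay below every wild-type array without LPS of its experiment, in both experiments, which held for 5 genes. Ppox, protoporphyrinogen oxidase, stood without LPS in the first experiment at 7.49 and 5.75 on the control diet and 9.51 and 5.50 on ABA, and its 8 LPS arrays ran from 4.55 to 5.88 (median 5.42). Ppox in wild-type mice of the second experiment stood at 10.46 and 10.40 on the control diet and 10.66 and 7.90 on ABA without LPS, and at 7.15 and 6.94 on the control diet and 6.90 and 7.40 on ABA with LPS. Ppox had the smallest change of the enzymes and still fell by 2.13 ± 0.50 (4.38-fold; adjusted p = 0.00391). Its first-experiment levels overlapped, with 2 of the 4 arrays without LPS inside the range of the LPS arrays.

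The enzymes between those ends moved alike. Alad, which joins aminolevulinate into porphobilinogen, fell by 2.43 ± 0.46 (adjusted p = 0.000901), and Uros, which closes the porphyrin ring, fell by 2.79 ± 0.50 (adjusted p = 0.00054). Urod and Cpox, the decarboxylase and the oxidase that follow, had changes of -2.34 ± 0.37 (adjusted p = 0.000173) and -2.80 ± 0.48 (adjusted p = 0.000359) and fell too. No enzyme of the pathway was near the lowest value on any of the 28 arrays. Some low levels were still the same on different arrays. Ppox stood at 6.90, its lowest level in the second experiment, on ABA LPS replicate 1 of both genotypes. Whether a floor above the shared lowest value limits these changes was not tested.

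Of the 4 mitochondrial carriers 3 fell. Abcb10, a transporter of the inner mitochondrial membrane that Gata1 induces, stood without LPS in the first experiment at 7.87 and 6.33 on the control diet and 9.63 and 4.79 on ABA, and its 8 LPS arrays ran from 3.87 to 5.66 (median 4.42). Abcb10 in wild-type mice of the second experiment stood at 10.79 and 11.21 on the control diet and 11.98 and 9.38 on ABA without LPS, and at 6.94 and 6.10 on the control diet and 7.36 and 6.54 on ABA with LPS. Abcb10 fell by 3.26 ± 0.55 (9.61-fold; adjusted p = 0.000309), with 1 ABA array without LPS inside the LPS range of the first experiment and no overlap in wild-type mice of the second. Slc25a37, mitoferrin, which imports iron, fell by 2.96 ± 0.39 (7.76-fold; adjusted p = 3.66e-05), without overlap in the wild-type mice of either experiment.

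Slc25a39, a carrier of glutathione, stood without LPS in the first experiment at 10.45 and 10.53 on the control diet and 12.60 and 10.46 on ABA, and its 8 LPS arrays ran from 9.43 to 11.41 (median 10.07). Slc25a39 in wild-type mice of the second experiment stood at 11.74 and 10.82 on the control diet and 11.33 and 10.43 on ABA without LPS, and at 10.13 and 10.09 on the control diet and 9.73 and 10.43 on ABA with LPS. Slc25a39 had the smallest change that passed and fell by 0.91 ± 0.30 (1.88-fold; adjusted p = 0.0313). Its LPS arrays reached well into the range of the others in the first experiment. Slc25a38, the glycine carrier that feeds Alas2, changed by -1.31 ± 0.49 and did not pass (adjusted p = 0.0543 in limma), and it was near the lowest value on all 8 LPS arrays and 3 of 4 others of the first experiment.

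All 3 receptors fell. Epor, the erythropoietin receptor, stood without LPS in the first experiment at 2.51 and 2.29 on the control diet and 5.90 and 2.29 on ABA, and its 8 LPS arrays ran from 2.29 to 2.34 (median 2.29). Epor in wild-type mice of the second experiment stood at 9.38 and 8.94 on the control diet and 8.77 and 6.02 on ABA without LPS, and at 3.87 and 4.46 on the control diet and 4.79 and 3.64 on ABA with LPS. Epor fell by 2.30 ± 0.62 (adjusted p = 0.0105). In the first experiment only 1 ABA array without LPS stood clear of the lowest value, whereas in wild-type mice of the second all 4 arrays without LPS lay above all 4 with it.

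Tfrc, the receptor for transferrin-bound iron, stood without LPS in the first experiment at 11.73 and 10.41 on the control diet and 12.74 and 9.24 on ABA, and its 8 LPS arrays ran from 9.16 to 10.80 (median 10.13). Tfrc in wild-type mice of the second experiment stood at 13.43 and 14.05 on the control diet and 14.77 and 12.31 on ABA without LPS, and at 10.80 and 10.19 on the control diet and 10.40 and 10.95 on ABA with LPS. Tfrc had the smallest change of the receptors and fell by 1.89 ± 0.48 (3.71-fold; adjusted p = 0.00679). The first-experiment groups overlapped. Tfr2, a second transferrin receptor that associates with Epor, fell by 2.16 ± 0.74 (adjusted p = 0.0357), the highest adjusted p among those that passed.

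**Figure D2:**
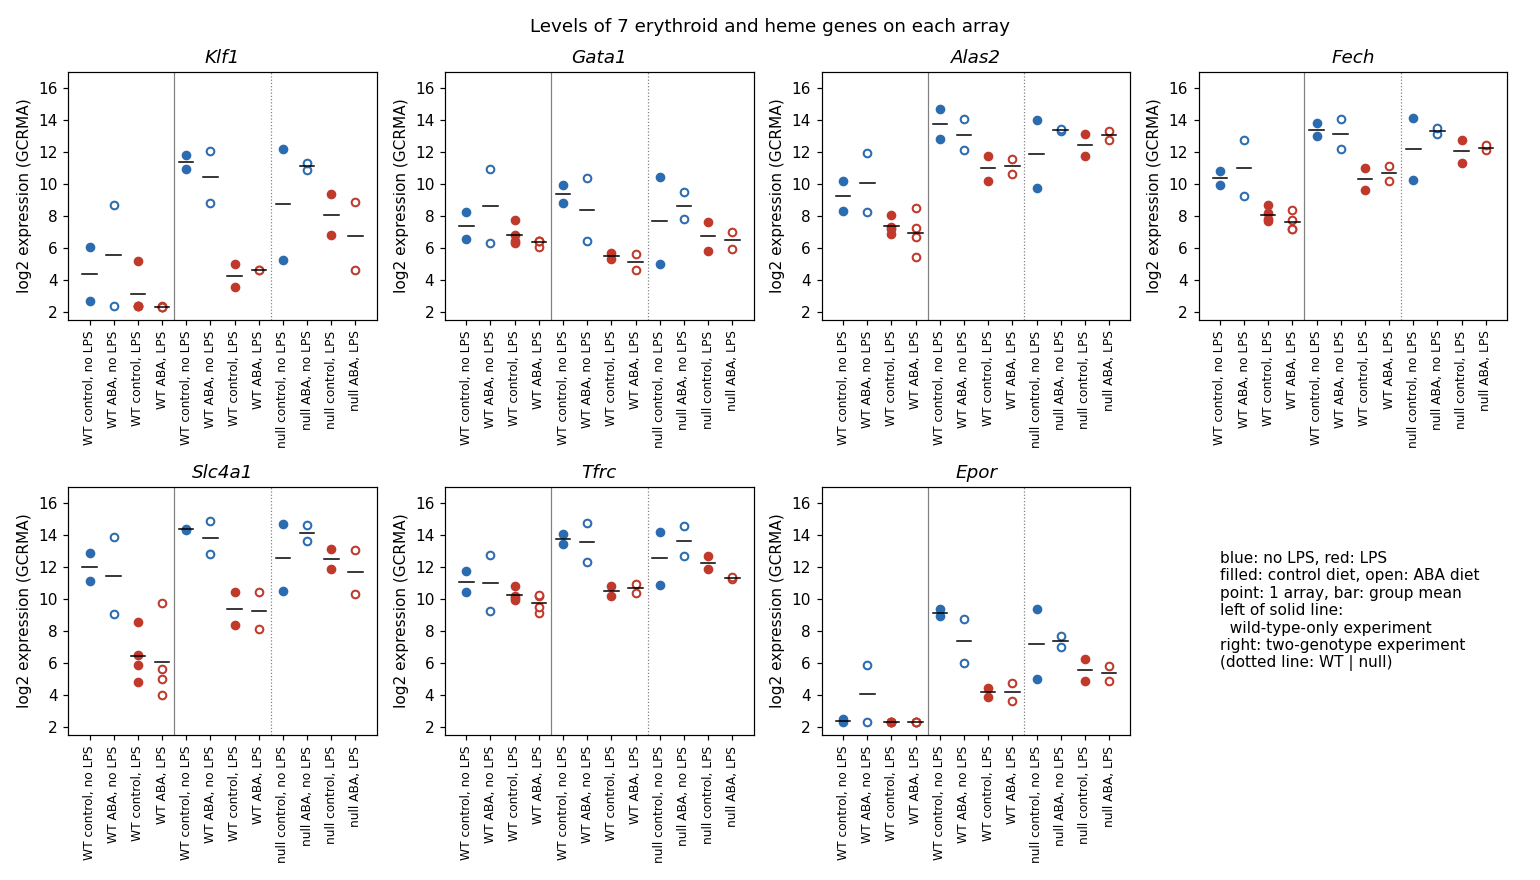
Log2 levels of Klf1, Gata1, Alas2, Fech, Slc4a1, Tfrc and Epor on each of the 28 arrays, by group, with a bar at each group mean; blue points are without LPS and red with LPS, filled points control diet and open points ABA. In the wild-type mice of the experiment with both genotypes every red point lies below every blue one, while the null groups and the first experiment overlap for most of these genes.

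Of 15 membrane and membrane skeleton genes 14 fell, and this role had the largest median change, -3.15. Slc4a1, band 3, the anion exchanger that anchors the skeleton, stood without LPS in the first experiment at 12.85 and 11.14 on the control diet and 13.86 and 9.06 on ABA, and its 8 LPS arrays ran from 3.98 to 9.74 (median 5.76). Slc4a1 in wild-type mice of the second experiment stood at 14.40 and 14.34 on the control diet and 14.87 and 12.80 on ABA without LPS, and at 10.42 and 8.40 on the control diet and 8.11 and 10.42 on ABA with LPS. Slc4a1 fell by 5.17 ± 0.80 (35.9-fold; adjusted p = 0.000153). In the first experiment 7 of the 8 LPS arrays lay below every array without LPS, the exception being an ABA array at 9.74.

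Rhd, the Rh blood group protein, stood without LPS in the first experiment at 7.69 and 3.90 on the control diet and 9.63 and 3.32 on ABA, and its 8 LPS arrays ran from 2.98 to 3.27 (median 3.05). Rhd in wild-type mice of the second experiment stood at 11.51 and 12.50 on the control diet and 12.48 and 9.34 on ABA without LPS, and at 3.43 and 3.05 on the control diet and 3.23 and 4.32 on ABA with LPS. Rhd fell by 5.17 ± 0.92 (36.0-fold; adjusted p = 0.000524), the largest change of the role. Its wild-type groups did not overlap in either experiment, though in the first the lowest array without LPS, at 3.32, stood just above the highest with it. Other blood group proteins fell as well. Kel, the Kell metalloprotease, fell by 4.73 ± 0.95 (adjusted p = 0.00137), Ermap, of the Scianna group, fell by 3.65 ± 0.73 (adjusted p = 0.00128), and Icam4, an adhesion protein, fell by 2.68 ± 0.78 (adjusted p = 0.0164). Rhag, which carries Rhd to the surface, fell by 2.67 ± 0.78 (adjusted p = 0.0163), and the water channel Aqp1 fell by 3.64 ± 0.72 (adjusted p = 0.00117).

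The genes of the membrane skeleton fell too. Epb42, protein 4.2, which binds band 3, fell by 4.36 ± 0.70 (adjusted p = 0.000206), and Ank1, the ankyrin that ties band 3 to spectrin, fell by 3.15 ± 0.73 (adjusted p = 0.00391). Sptb, beta spectrin, fell by 2.13 ± 0.61 (adjusted p = 0.0141), Tmod1, which caps actin, fell by 2.06 ± 0.54 (adjusted p = 0.00813), and Add2, beta adducin, fell by 1.71 ± 0.55 (adjusted p = 0.0279). Cldn13, a claudin, fell by 4.30 ± 0.82 (adjusted p = 0.000957), and the tetraspanin Tspan33 fell by 2.95 ± 0.52 (adjusted p = 0.000479). Xk, the partner of Kell, changed by -0.39 ± 0.23 and did not pass (adjusted p = 0.212 in limma). Xk stood without LPS in the first experiment at 2.71 and 2.31 on the control diet and 4.65 and 2.31 on ABA, and its 8 LPS arrays ran from 2.29 to 2.35 (median 2.31). On all 16 arrays of the other experiment Xk lay at the lowest value, so it was not tested there, and a fall could not have been seen.

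All 4 cytosolic genes fell. Trim10, a tripartite motif protein of late erythroid cells, stood without LPS in the first experiment at 7.15 and 3.98 on the control diet and 9.31 and 2.42 on ABA, and its 8 LPS arrays ran from 2.29 to 2.56 (median 2.29). Trim10 in wild-type mice of the second experiment stood at 12.04 and 11.39 on the control diet and 12.64 and 9.94 on ABA without LPS, and at 6.44 and 4.40 on the control diet and 2.99 and 6.39 on ABA with LPS. Trim10 fell by 4.70 ± 0.84 (adjusted p = 0.000537). It was near the lowest value on all 8 LPS arrays of the first experiment, where 1 array without LPS was as low.

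Car1, carbonic anhydrase of red cells, stood without LPS in the first experiment at 9.04 and 7.75 on the control diet and 10.44 and 6.71 on ABA, and its 8 LPS arrays ran from 6.10 to 9.69 (median 7.85). Car1 in wild-type mice of the second experiment stood at 11.40 and 12.48 on the control diet and 12.75 and 11.29 on ABA without LPS, and at 9.31 and 7.09 on the control diet and 9.17 and 8.06 on ABA with LPS. Car1 had the smallest change of the role and fell by 1.94 ± 0.62 (3.84-fold; adjusted p = 0.026). Its groups overlapped in the first experiment, where the 4 control-diet LPS arrays lay above the 4 ABA LPS arrays. Car2, a second carbonic anhydrase, fell by 3.21 ± 0.54 (adjusted p = 0.000326), and Bpgm, which makes the bisphosphoglycerate that lowers hemoglobin's oxygen affinity, fell by 1.96 ± 0.39 (adjusted p = 0.00129).

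The lowest value limits what the first experiment can show. There, 9 genes (Zfpm1, Slc25a38, Epor, Sptb, Ank1, Add2, Xk, Icam4 and Trim10) lay within 0.5 log2 units of it on all 8 LPS arrays, and 22 on none. For these 9, the change over both experiments averages one in which a fall could be seen in part at most, and it does not measure the size of the fall. The same limit applies to Klf1, Epb42, Kel and Aqp1, this close to the lowest value on 7 of the 8 arrays, and to Nfe2 and Cldn13, on 6. Tfr2 was this close on 4, Rhag on 3 and Tal1 on 1. The changes of these genes were smaller in the first experiment than in wild-type mice of the second. Those of Kel were -2.54 and -7.64, and those of Klf1 -2.25 and -6.46. In the second experiment only Xk kept within 0.5 log2 units of the lowest value throughout. Even so, Add2, Sptb and Ank1 stood there at their own lowest level (3.30, 3.38 and 4.11) on several arrays each. Klf1 stood at 4.61 on both wild-type ABA LPS arrays and on null ABA LPS replicate 1. Whether such repeated levels limited the changes in the second experiment was not tested. Leaving out 1 array at a time left between 34 and 39 of 40 genes passing, with 34 without ABA no-LPS replicate 1 of the first experiment or without wild-type control no-LPS replicate 2 of the second. Of the 38, 29 passed under every setting that used both experiments, and Add2, Car1, Slc25a39, Tfr2 and Zfpm1 each lost the call with 1 array left out.

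Arrays of the same group differed by a large part of the LPS change. In the first experiment, the mean level of the 40 genes was 9.58 on ABA no-LPS replicate 1 and 5.51 on replicate 2, and all 39 genes compared were higher on the former. The median size of that difference was 4.01 log2 units for these genes and 0.174 for all genes, and Ank1 differed most, by 7.08. Of the control-diet null arrays without LPS, replicate 1 had a mean of 7.22 and replicate 2 of 11.56, with all 39 genes higher on the latter, a median difference of 4.20 against 0.420 for all genes, and the largest for Icam4, 7.23. Wild-type ABA no-LPS arrays of the same experiment had means of 11.67 and 9.002, again with all 39 genes higher on the former. These pairs also differed in the mean of 13 proliferation genes: 9.01 and 6.92, 7.13 and 10.10, and 10.74 and 8.28, in the same order. Cpa1 stood at 9.67 on the null array with the high erythroid mean. The part of these differences in the results was not tested beyond the values given without single arrays.

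**Figure D3:**
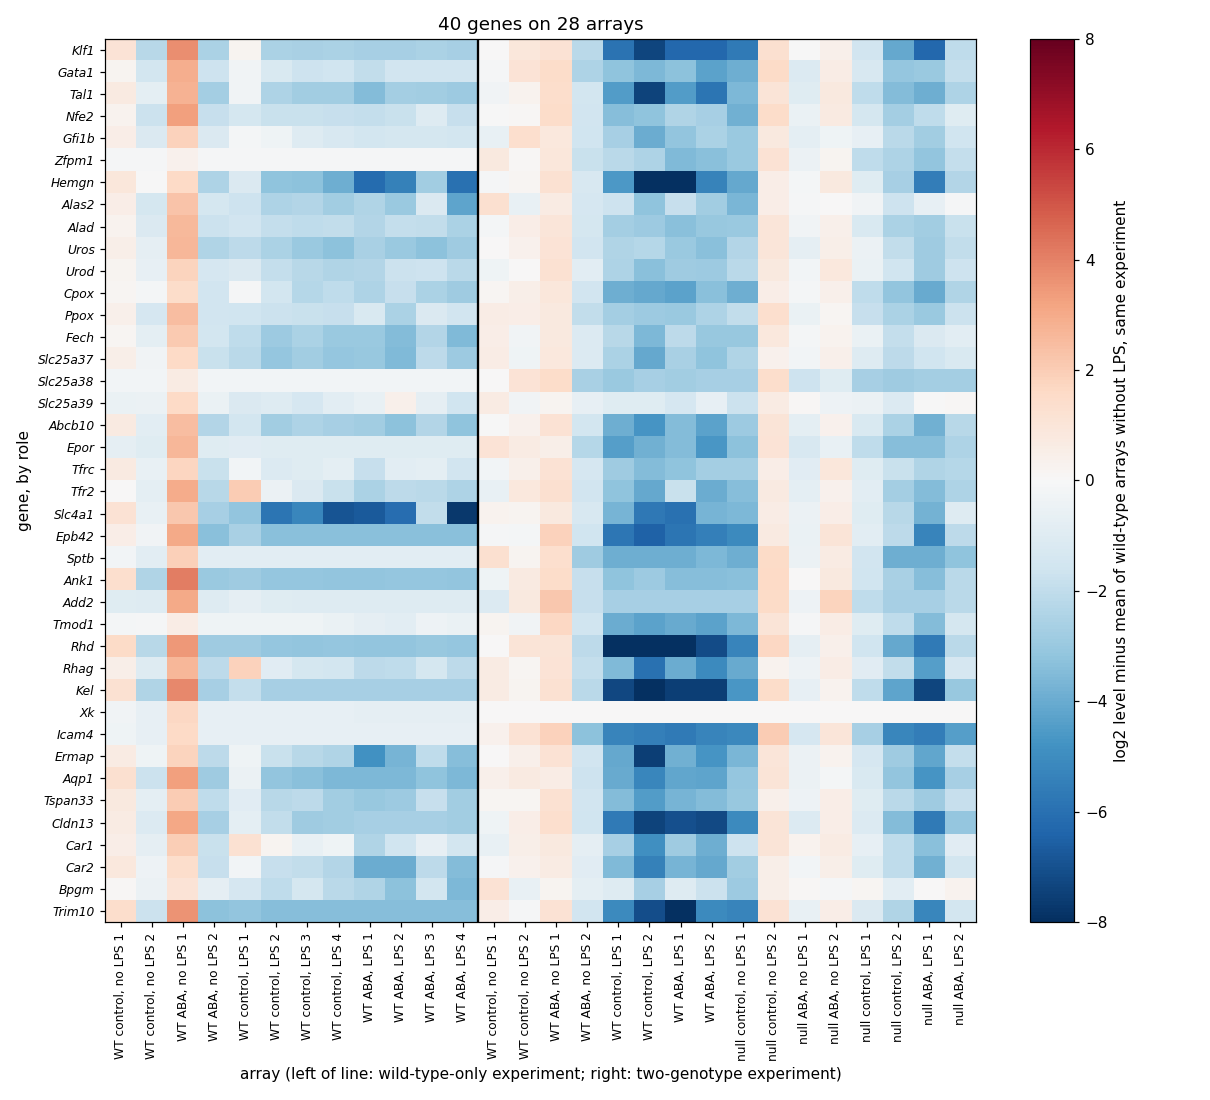
Level of each of 40 genes (rows, by role) on each of 28 arrays (columns, by group), as the log2 difference from the mean of the wild-type no-LPS arrays of the same experiment, with colours limited at -8 and 8. Whole columns change together: the ABA no-LPS replicates of the first experiment are red and blue, and the control-diet null arrays without LPS part in the same way.

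Null mice were studied in the second experiment alone, and its 16 arrays were fitted together, so the comparisons that follow share arrays with each other and with those above. In that fit, wild-type mice showed the LPS fall again on 8 of the arrays already used: 24 of 39 genes fell and 0 rose, against 5.49% of 13377 genes that fell, 8.55% that rose and 14% in either direction, with a median of -3.78. By limma, Rhd fell by 7.95 ± 1.50 (248-fold; adjusted p = 0.0101), and the changes were -7.64 ± 1.44 (adjusted p = 0.0103) for Kel, -6.84 ± 1.34 (adjusted p = 0.0122) for Cldn13, -6.76 ± 1.39 (adjusted p = 0.0145) for Hemgn and -6.46 ± 1.55 (adjusted p = 0.0261) for Klf1. This count rested on single arrays: it went both below and above 24 with 1 array left out, which leaves 1 array in a group. The median then ran from -4.53 without wild-type ABA no-LPS replicate 2 to -3.08 without replicate 1, with all 39 changes negative each time.

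In null mice, LPS changed none of the erythroid and heme genes past the threshold. By limma, 0 of 39 passed, against 7.4% of all genes. An unadjusted p under 0.05 was held by 3 of the 39, against 22.2% of all genes. These 3 were Ppox at -2.02 ± 0.77, Aqp1 at -2.29 ± 0.94 and Cpox at -2.12 ± 0.93. The median change was -1.64, with 37 changes negative and those of Alas2 (0.11 ± 0.92) and Bpgm (0.52 ± 0.74) positive. For none of the 40 genes did the 4 null LPS arrays lie below all 4 without LPS (6.97% of all genes). Without control no-LPS replicate 1, the array with the low erythroid mean, the median was -2.85. Some genes then passed, in a fit that left 1 array in that group. Without replicate 2 the median was -0.65.

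The null groups overlapped for each gene. Klf1 in null mice stood at 5.24 and 12.18 on the control diet and 10.87 and 11.32 on ABA without LPS, and at 9.36 and 6.80 on the control diet and 4.61 and 8.84 on ABA with LPS. Gata1 in null mice stood at 4.99 and 10.40 on the control diet and 7.78 and 9.50 on ABA without LPS, and at 7.63 and 5.82 on the control diet and 5.94 and 6.99 on ABA with LPS. Control-diet replicate 1 was the lowest array without LPS for both genes, below 3 of the 4 LPS arrays for Klf1 and below all 4 for Gata1. Alas2 in null mice stood at 9.76 and 13.96 on the control diet and 13.31 and 13.45 on ABA without LPS, and at 13.15 and 11.73 on the control diet and 12.74 and 13.32 on ABA with LPS. Fech in null mice stood at 10.22 and 14.09 on the control diet and 13.10 and 13.52 on ABA without LPS, and at 12.73 and 11.33 on the control diet and 12.11 and 12.42 on ABA with LPS. Alas2 and Fech with LPS stayed within the range of the arrays without it on all 4 arrays. Epor in null mice stood at 5.003 and 9.40 on the control diet and 7.02 and 7.71 on ABA without LPS, and at 6.24 and 4.88 on the control diet and 4.88 and 5.83 on ABA with LPS. Tfrc in null mice stood at 10.90 and 14.19 on the control diet and 12.72 and 14.54 on ABA without LPS, and at 12.68 and 11.88 on the control diet and 11.26 and 11.36 on ABA with LPS. Slc4a1 in null mice stood at 10.53 and 14.67 on the control diet and 13.65 and 14.61 on ABA without LPS, and at 13.15 and 11.89 on the control diet and 10.30 and 13.09 on ABA with LPS. The highest LPS array lay below 3 of the 4 arrays without LPS for these 3 genes, and the low array without LPS stood below all 4 LPS arrays for Tfrc, 3 for Slc4a1 and 2 for Epor.

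The difference between genotypes in the LPS change was tested directly and did not pass for any gene. Of 39 genes 0 passed by limma (0.0299% of all genes did) and 6 had an unadjusted p under 0.05, where 4.46% of all genes had. All 39 estimates were positive, that is, less negative with LPS in null than in wild-type mice, with a median of 2.12 against -0.07 for all genes, of which 61.1% were negative. By limma the smallest p-values were those of Rhd at 5.59 ± 2.11 (adjusted p = 0.943), Cldn13 at 4.68 ± 1.90 (adjusted p = 0.943) and Hemgn at 4.62 ± 1.96 (adjusted p = 0.943). Leaving out control-diet null no-LPS replicate 1 brought the median to 1.16, and leaving out replicate 2 brought it to 3.15.

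With LPS, the estimated level was higher in null than in wild-type mice for all 39 genes, but no gene passed. By limma 0 of 39 passed (0.0299% of all genes) and 10 had an unadjusted p under 0.05 (4.52% of all genes), with a median difference of 1.51 against -0.02 for all genes. Rhd in null mice stood at 6.15 and 13.10 on the control diet and 10.72 and 11.86 on ABA without LPS, and at 9.88 and 7.35 on the control diet and 5.83 and 9.31 on ABA with LPS. Its wild-type LPS arrays, given above, reached 4.32 at most, so the groups did not overlap, and the difference by limma was 4.59 ± 1.50 (adjusted p = 0.79). Hemgn in null mice stood at 9.40 and 14.003 on the control diet and 13.29 and 14.23 on ABA without LPS, and at 12.51 and 10.81 on the control diet and 7.96 and 11.11 on ABA with LPS. Of Hemgn, 1 null LPS array lay below the highest wild-type LPS array, and the difference by limma was 3.89 ± 1.39 (adjusted p = 0.919). Cldn13 in null mice stood at 6.46 and 12.58 on the control diet and 10.46 and 12.12 on ABA without LPS, and at 10.45 and 8.13 on the control diet and 5.92 and 8.48 on ABA with LPS. Cldn13 levels on wild-type LPS arrays were 5.91 and 4.16 on the control diet and 4.54 and 4.33 on ABA, just below the lowest null LPS array, and the difference by limma was 3.51 ± 1.34 (adjusted p = 0.986).

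All 4 null LPS arrays lay above all 4 wild-type LPS arrays for 13 of 39 genes, where 1.36% of all genes did so. They were Gata1, Tal1, Alas2, Fech, Slc25a37, Epor, Tfrc, Epb42, Tmod1, Rhd, Tspan33, Cldn13 and Bpgm, from every role. By role, the median difference was 2.33 for membrane genes, 1.96 for cytosolic genes, 1.29 for regulators, 1.21 for receptors, 1.12 for carriers and 1.02 for heme enzymes. With single arrays left out the median over all 39 ran from 1.22 to 1.90. Mean levels of the erythroid and heme genes were 7.18 to 9.39 on the null LPS arrays and 6.05 to 7.04 on the wild-type ones. The proliferation genes moved with them, with means of 7.21 to 8.48 against 6.31 to 7.04, while the red pulp macrophage means overlapped, 8.65 to 9.34 against 7.92 to 9.84. Xist was high on 2 of 4 arrays of either genotype. In wild-type mice these were both control-diet arrays and neither ABA array, and in null mice replicate 2 of each diet. The part of proliferating cells in the genotype difference was not tested.

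**Figure D4:**
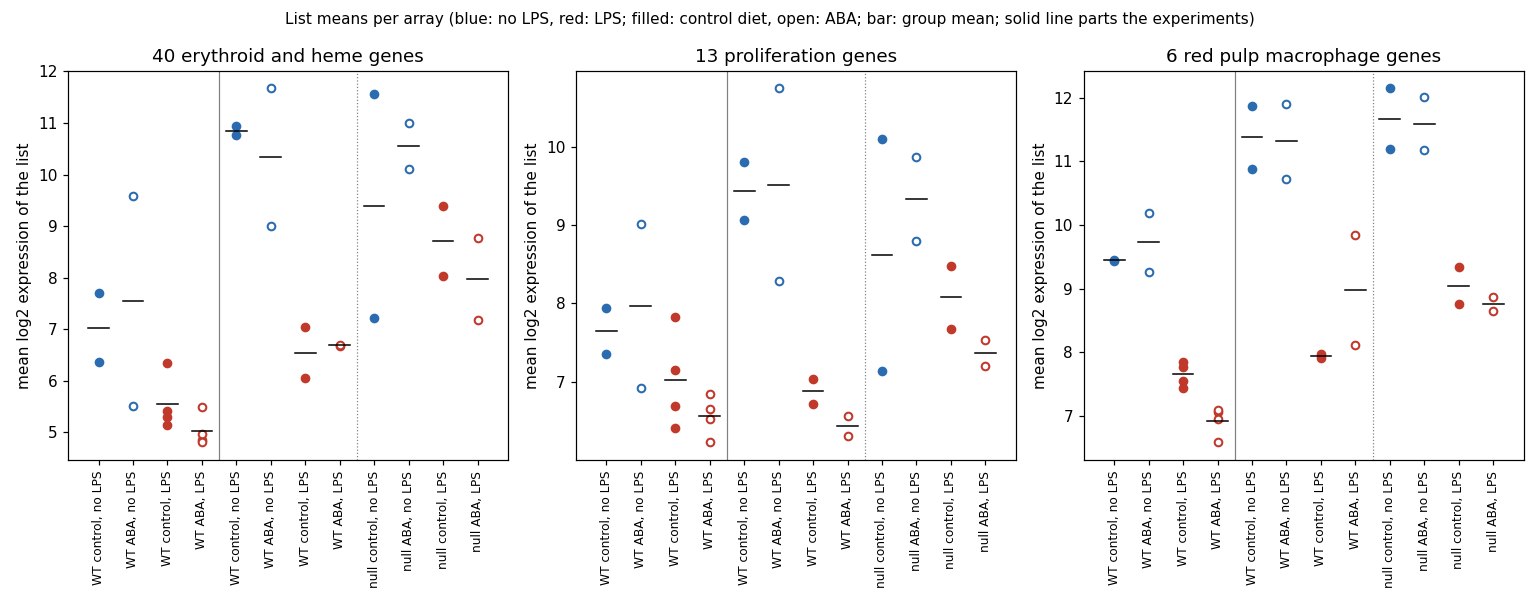
Mean log2 level per array of the 40 erythroid and heme genes, of 13 proliferation genes and of 6 red pulp macrophage genes, by group, with points and bars as in the plot of single genes. The erythroid and proliferation means of null LPS arrays (7.18 to 9.39 and 7.21 to 8.48) lie above those of wild-type LPS arrays, and the macrophage means overlap.

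Without LPS, null and wild-type mice differed for no gene by limma: 0 of 39 passed (0.00748% of all genes) and 0 had an unadjusted p under 0.05 (2.12% of all genes). The median difference was -0.66, with 37 negative, and it ran from -1.77 to 0.45 with single arrays left out, its sign turning without control-diet null replicate 1. The smallest p-values belonged to Epor at -0.995 ± 0.94, Slc25a38 at -0.96 ± 0.98 and Gfi1b at -0.82 ± 0.91 (adjusted p = 1 for each). For 0 of the 39 genes did the 4 null arrays lie wholly above or below the 4 wild-type ones. Of all genes, 0.202% lay wholly above and 0.12% wholly below.

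ABA left no change that passed in any comparison of diets. In wild-type mice with LPS, 0 of 40 genes passed by limma (0.0149% of all genes) and 0 had an unadjusted p under 0.05 (5.08% of all genes), with a median of -0.27, which was -0.034 without control LPS replicate 1 of the first experiment and -0.48 without wild-type control LPS replicate 2 of the second. Car2, Hemgn and Car1 had the smallest p-values, at -0.99 ± 0.67, -1.42 ± 1.03 and -0.96 ± 0.77 (adjusted p = 0.948 for each). The experiments differed in sign: the 3 changes were -1.78, -2.18 and -1.65 in the first experiment and 0.57, 0.12 and 0.41 in the other, and the median over all the genes was -0.33 and 0.18. On the wild-type LPS arrays of the second experiment, Xist was high on the control diet and low on ABA. There, diet cannot be told apart from whatever goes with Xist.

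In wild-type mice without LPS, 0 of 40 passed (0.00743% of all genes) and 0 had an unadjusted p under 0.05 (5.86% of all genes) by limma, with a median of -0.06, made of 0.44 in the first experiment and -0.40 in the second. The sign of that median turned on single arrays: it was -0.74 without wild-type ABA no-LPS replicate 1 of the second experiment and 0.73 without ABA no-LPS replicate 2 of the first. Xk at 0.49 ± 0.35, Add2 at 1.17 ± 0.85 and Nfe2 at 0.69 ± 0.86 had the smallest p-values (adjusted p = 0.862, 0.862 and 0.977), and for each 1 of the 2 ABA arrays of the first experiment stood high, at 4.65, 6.34 and 7.47. The dependence of the LPS change on diet passed for 0 of 40 genes (0% of all genes), with 0 at an unadjusted p under 0.05 (4.17% of all genes) and a median of -0.31, -1.07 in the first experiment and 0.75 in the second. Without ABA no-LPS replicate 2 of the first experiment that median was -1.12, and without replicate 1 it was 0.37. Add2, Xk and Tfr2 had the smallest p-values there, at -1.24 ± 1.09, -0.50 ± 0.45 and -1.31 ± 1.45 (adjusted p = 0.956 for each).

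In null mice ABA gave a median change of 0.24, with 26 of 39 positive. By limma 0 of 39 passed (0% of all genes) and 0 had an unadjusted p under 0.05 (3.13% of all genes). Slc25a39 at 0.58 ± 0.49, Bpgm at 0.86 ± 0.74 and Alas2 at 1.05 ± 0.92 had the smallest p-values (adjusted p = 1 for each). The median was -0.88 without control-diet null no-LPS replicate 1 and 1.34 without replicate 2.

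Other genes of the red cell and heme pathways moved in both directions with LPS in wild-type mice. Of 60 listed, 50 had a probe set and 47 were tested, of which 24 fell (14.1% of all genes) and 10 rose (16.7% of all genes) by limma, with a median of -0.71. Cat, catalase, fell by 2.05 ± 0.24 (adjusted p = 9.27e-06), Cd24a, a surface protein of erythroblasts and B cells, fell by 1.93 (adjusted p = 1.66e-05), and Cd36, a scavenger receptor, fell by 1.54 (adjusted p = 2.8e-05). Among those that rose were Fth1, the heavy chain of ferritin, by 0.46 ± 0.06 (adjusted p = 2.58e-05), the kinase Jak2, which signals for Epor, by 0.80 (adjusted p = 5.6e-05), and Cd44, an adhesion receptor, by 0.69 (adjusted p = 0.000107). Alas1, the aminolevulinate synthase of tissues in general, rose by 0.49, and Gata2, the factor that Gata1 replaces as erythroid cells mature, by 0.90. Hmox1, which breaks heme down, fell by 1.39. In null mice 4 of 49 fell and 3 rose, where 7.4% of all genes changed in either direction.

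Markers of other cell types moved with LPS too. Of 13 proliferation genes 10 fell in wild-type mice with a median of -1.90, among them Mki67 (-2.73) and Ccnb2 (-2.95). In null mice 0 of 13 passed by limma, against 7.4% of all genes, with a median of -1.39. An unadjusted p under 0.05 was held there by 1 of the 13 and by 22.2% of all genes. Proliferation means in wild-type mice ran from 6.92 to 9.01 without LPS and 6.23 to 7.82 with it in the first experiment, and from 8.28 to 10.74 and 6.31 to 7.04 in the second. Of 6 red pulp macrophage genes, markers of the cells that recycle red cell iron, 4 fell in wild-type and 4 in null mice: the changes in wild-type mice were -6.08 for Cd163, -5.46 for the iron exporter Slc40a1, -2.86 for Cd5l and -1.47 for Vcam1. Spic, at 0.76, and Adgre1, at -0.17, did not pass by limma (adjusted p = 0.0511 and 0.759), so the list did not move as a whole. Means of the 6 macrophage genes ran from 9.27 to 10.19 without LPS and 6.59 to 7.86 with it in the first experiment, and from 10.73 to 11.90 and 7.92 to 9.84 in wild-type mice of the second. Of 6 B cell genes 2 fell, of 5 T cell genes 3, of 7 neutrophil genes 1 (Mpo), and of 5 endothelial genes 2 fell and 1 rose. Of all genes 14.1% fell and 16.7% rose. The other neutrophil genes did not pass in wild-type mice: S100a8 (0.87), S100a9 (0.96) and Ngp (0.33) had positive changes, and Elane (-0.16), Camp (-0.67) and Ltf (-0.57) negative ones. In null mice S100a8 rose by 1.88 and Ngp by 2.23 (adjusted p = 0.0314 and 0.0366 by limma). Of 7 megakaryocyte and platelet genes 0 passed by limma in wild-type mice. An unadjusted p under 0.05 was held by 3 of these 7 and by 40.9% of all genes. Mean megakaryocyte and platelet levels in the first experiment were 4.51 to 5.28 without LPS and 4.10 to 5.06 with it. The mast cell and basophil markers Ms4a2, Mcpt8 and Fcer1a were near the lowest value on all 28 arrays, and Hdc rose by 2.56. Of 6 pancreas genes 2 were tested and Cela1 fell by 2.97. Of the 4 arrays on which Cpa1 was high 2 were wild-type, and without these 38 of 40 erythroid and heme genes fell with LPS in wild-type mice, 37 of them among those that fell before. The call lost was that of Tfr2. The part of the other cell types in the erythroid fall was not tested.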

How the data were processed

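Spleen RNA was measured on 28 arrays. The deposited values are log2 expression values that the authors made with GCRMA, per the submitters' processing notes, which also name limma, with versions not given in the sources used here. The log2 scale was read from the values, and the 2 experiments were taken as normalised separately because their lowest values differ. Scanner files were not used here. Samples were grouped by the labels for diet, genotype and stimulus, and by the experiment in the title.

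Of 45101 probe sets, 34945 named 1 gene, 932 several and 9224 none, per GEO's platform annotation, and only the first were used. Genes entered the tests if they lay above the 40th percentile of the array on at least 4 arrays (fit of 20) or 2 arrays (fit of 16, or 1 experiment alone), the size of the smallest condition. Tests used lmFit and eBayes of limma 3.58.1, run in R 4.3.3 (Benjamini-Hochberg over all genes, threshold 0.05). Wild-type comparisons used 20 arrays with 4 conditions of diet and LPS and a term for experiment (13458 genes, 15 residual degrees of freedom). Those with null mice used 16 arrays with 8 conditions (13377 genes, 8 residual degrees of freedom). Precision is limited by the number of arrays. All fits were tested on simulated data. Of all pairs of arrays, 0 were identical in their values. Replicate numbers were not taken to pair the samples.

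Wild-type levels are given for Slc4a1, Alas2, Klf1, Gata1, Tfrc, Epor and Fech, chosen by role, and for the genes with the largest and the smallest change of each role, array by array except for the 8 LPS arrays of the first experiment (range and median). Null levels are given for those 7, Rhd, Hemgn and Cldn13. Where no gene passed, the 3 with the smallest p are named, as are the 3 of the other erythroid list that rose and fell with the smallest adjusted p. Cpa1, Xist, Alas1, Gata2 and Hmox1 and the markers given with values were picked with their values already seen, and so was Cldn13 for its levels. The genes and lists were chosen with earlier results of these data known. Promoter windows came from RefSeq (GRCm38.p6). Plots used matplotlib 3.10.9 (Python 3.11.15). Alternatives covered normalisation, the lowest value, the filter, probe sets, array weights, Xist, the replicate number as a block, each experiment alone and each array left out.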

Additional observations from a re-analysis of the deposited data

Results flagged for a closer look

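In the wild-type-only experiment, groups of 4 arrays with LPS were searched for 1 array apart from the other 3, by the gap to the nearest array over the range of the group. A chance rate of about 1 in 20 holds for independent values. It does not apply here, since the 40 genes share their arrays and many values lie at or near the lowest value. Among 80 such groups (40 genes on 2 diets), 17 held such an array, in 14 genes. On the control diet, 9 of them were replicate 1, the highest array in each case: Klf1 at 5.20, Tal1 at 5.79, Nfe2 at 2.83, Epor at 2.34, Epb42 at 3.06, Kel at 2.99, Xk at 2.35, Aqp1 at 5.49 and Trim10 at 2.56. On that diet Tmod1 stood apart at 8.53 on replicate 4 and Icam4 at 2.29 on replicate 2, both the lowest of their group. On ABA with LPS, replicate 3 was the highest for Klf1 at 2.39, Rhag at 2.98 and Aqp1 at 2.68. Gata1 was lowest on replicate 1, at 6.04 against 6.44 to 6.46, Epb42 on replicate 2 at 2.29 and Cldn13 on replicate 4 at 2.37. Only 3 of the 17, those of Gata1, Tal1 and Tmod1, came from groups with no array near the lowest value, and in the others at least 3 of the 4 arrays lay near the lowest value. The gap was large in some of these: on the control diet Klf1 stood at 5.20 against 2.37 to 2.39 and Aqp1 at 5.49 against 2.36 to 2.75. That array, replicate 1, also had the highest mean of the 40 genes in its group, 6.34 against 5.14 to 5.42.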

How the results depend on the processing

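With LPS in wild-type mice, the count of 38 genes that fell stayed between 30 (array weights) and 39 (quantile normalisation, median centring or a 60th percentile filter) under the settings that used both experiments, was 37 with a term for high Xist, and was 15 within the wild-type-only experiment and 16 within the other. It ran from 34 to 39 with each array left out. In the wild-type mice of the second experiment the count of 24 lay between 19 (no filter) and 35 (array weights), and between 2 and 36 with each array left out. In null mice 0 passed under each setting but leave-one-out, which gave 0 to 9. In the other 7 comparisons 0 of the erythroid and heme genes passed under any setting run, arrays left out included. Of same-numbered pairs of groups, 4 of 14 and 20 of 56 correlated above 0.1, in the first and second experiment, and the highest correlations were 0.39 and 0.51. Where both groups hold 2 arrays, either number gives the same correlation by construction. These counts therefore cannot settle whether the replicate numbers pair the samples. A fit with the replicate block had 35 and 22 genes falling in wild-type mice, and 0 passed elsewhere. Leaving out the arrays with high Cpa1 (2 of the 4 in either fit), chosen after seeing the data, gave 38 and 34.

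Directions turned within the second experiment for Car2 (0.57), Hemgn (0.12) and Car1 (0.41) under ABA with LPS, for Nfe2 under ABA without LPS (-0.0662), and for Tfr2 in the diet by LPS comparison (1.02). With each array left out, the change under ABA without LPS ran from -0.092 to 0.75 for Xk and from -0.23 to 1.59 for Nfe2, and the diet by LPS value of Xk from -0.76 to 0.077. Between genotypes without LPS it ran from -2.10 to 0.11 for Epor, -1.98 to 0.057 for Slc25a38 and -1.76 to 0.12 for Gfi1b, and for Slc25a39 under ABA in null mice from -0.017 to 1.17. The cause was not tested. Of all genes tested, and other than with an array left out, those called ran from 928 (second experiment alone) to 4612 against 4154 for LPS in wild-type, from 706 to 1417 against 990 for LPS in null, from 2 to 138 against 4 for LPS by genotype, from 0 to 78 against 2 for ABA with LPS, from 0 to 62 against 1 for ABA without LPS, from 0 to 37 against 0 for diet by LPS, from 0 to 201 against 1 and 0 to 18 against 4 for genotype without and with LPS, and from 0 to 116 against 0 for ABA in null.

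Groups of 2 arrays, arrays of a group that differed by up to 7.23 log2 units in 1 gene, and values held at the lowest value limit what these data show. Detection against the arrays' own background was not used here. Genes at the lowest value can hide a fall, and the levels of Xk, Zfpm1, Epor and Slc25a38 in the first experiment were nearly all there. The members share the arrays they were measured on, so their common direction is not independent evidence.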
